A study of Mus musculus with 48 samples.

Results

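Nucleolin (Ncl) encodes an abundant RNA-binding protein of the nucleolus that takes part in the making of ribosomes and in the handling of many mRNAs. All rows of the editing tables assigned to Ncl were taken, which gave 128 adenosines of 48715 positions in all. Every one of them carried the annotation 3UTR, and 91 of the 128 were read more than 100 times in at least 1 library. Ncl was selected on its measured editing levels in these same libraries, those of Adar1E861A/E861A Ifih1-/- against Adar1+/+ Ifih1-/- tissue. The levels are therefore a description, and no p-value is given for any Ncl site. Counts of Ncl sites called by the main fit over all sites are set beside the share called over all sites. Under other settings that share is given only in part, and none of these counts supports anything.

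Editing was measured by mmPCR-seq, in which many chosen transcript regions are amplified in parallel from cDNA by microfluidic PCR and then deep sequenced. The 48 libraries came from 8 tissues of male C57BL/6 mice aged 12 weeks: brain, heart, kidney, liver, small intestine, BM (bone marrow), thymus and spleen. In each tissue there were 3 independent biological replicates of Adar1+/+ Ifih1-/- mice (WT below) and 3 of Adar1E861A/E861A Ifih1-/- mice (E861A below). Both groups lacked Ifih1, which encodes MDA5, a cytoplasmic sensor of double-stranded RNA, so the WT group is wild type at Adar1 only. The E861A allele is a germline point mutation that takes away the editing activity of ADAR1 in every cell that expresses it.

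ADAR enzymes convert adenosine to inosine in double-stranded RNA, and inosine is read as guanosine after reverse transcription. ADAR1 and ADAR2 are the 2 catalytically active members in mice. Each has its own preferred adenosines, and many substrates can be used by both. In untranslated regions the double strand is usually made by repeats that lie in opposite orientations in 1 transcript. The editing level is the percentage of reads at an adenosine that carried guanosine.

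Ncl lies on the minus strand of chromosome 1 (mm9, chr1:88241294-88256030), and the 3′ UTR follows the stop codon at chr1:88247195-88247197 in the last of 14 exons. Sites are named here by their distance in bases after the stop codon, within a 3′ UTR of 5901 bases. All 128 positions are adenosines on the transcript strand of the mm9 genome. They form 4 clusters, in which neighbours are less than 100 bases apart: cluster 1 from 505 to 631 (23 positions), cluster 2 from 1788 to 1933 (31 positions), cluster 3 from 2636 to 3051 (51 positions) and cluster 4 from 4671 to 4839 (23 positions). A site was counted as edited in a group when the pooled level exceeded 1% and at least 2 of 3 libraries of both genotypes in that tissue had more than 100 reads. By this rule 24 sites were edited in at least 1 tissue, 19 of them in WT and 13 in E861A, and 11 were edited in WT only. Of these 11, sites 1814 and 1917 reached 7.84% and 2.98% in 1 E861A brain library each. Brain did not count for them, because too few WT brain libraries were covered. Site 2648 was added because its pooled level exceeded 5% in E861A brain, where WT brain was not covered.

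The stretches that hold these sites are shown as 30 bases each, 5′ to 3′ on the transcript strand, with T for U. Capitals mark the 24 edited adenosines, where they lie in these stretches, and site 2648.
Cluster 1 (bases 500 to 529, chr1:88246666-88246695): gttgcAcatgcctttAaccccAgcActtgg
Cluster 2 (bases 1787 to 1816, chr1:88245379-88245408): cAgctgggcgtggtggcgcAcgcctttAgt
Cluster 2 (bases 1893 to 1922, chr1:88245273-88245302): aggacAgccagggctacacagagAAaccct
Cluster 3 (bases 2642 to 2671, chr1:88244524-88244553): ataggtAgActAggctgAcctcAagatgtc
Cluster 3 (bases 2875 to 2904, chr1:88244291-88244320): tatagagtAAgttccAggacAgccagagct
Cluster 4 (bases 4684 to 4713, chr1:88242482-88242511): ctcActAtgtAgctttggttAtcctAgaac
In the last of these stretches the capitals are, from 5′ to 3′, sites 4687, 4690, 4694, 4704 and 4709. These sites lie within 23 bases of each other, and they carry the main contrast between neighbouring sites described below. Sites 505 and 515 in the first stretch carry another. Site 2781 was edited as well and lies outside these stretches.

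Comparing the 3′ UTR with its own reverse complement gave 9 pairs of inverted matches. They aligned over 29 to 128 columns with 72.5% to 86.21% identity and together covered 13.5% of the 3′ UTR. Of the 128 Ncl positions, 96 lay in such a match. Of the 24 edited sites 21 did so, as did 48 of the 67 positions that were read and not counted as edited. Cluster 4 (bases 4664 to 4787) matched cluster 2 (bases 1810 to 1933) over 128 columns and cluster 3 (bases 2808 to 2913) over 112 columns. Clusters 1, 2 and 3 also matched a stretch between bases 5369 and 5476 that holds no position of the tables. In the best match, 16 of the 21 edited adenosines lay opposite U, 3 opposite C and 2 opposite a gap. Of the 48 positions not counted as edited, 42 lay opposite U, 3 opposite C, 2 opposite G and 1 opposite a gap. Lying opposite U was thus no more common at the edited sites. These alignments describe sequence only, and no RNA structure was measured.

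At a limit of 5%, the base before the adenosine differed between the sites with higher levels and the others. Of the 9 sites whose pooled level exceeded 5% in some group, 7 followed a U, compared with 11 of the 82 other positions that were read. Of the 24 edited sites, 8 followed a U and 10 a C. Of the 67 positions read and not counted as edited, 10 followed a U and 15 a C. Sites 4690, 4694, 4704 and 4709 all follow a U. For 16 of the 25 sites, the 31 bases centred on the adenosine occur once in the mm9 genome and never with G at the site, and all 5 sites of cluster 4 are among them. The 31 bases around site 1898 occur 1095 times and those around site 1814 occur 241 times. Only these 31 bases were searched, so whether whole reads at these sites match other places was not tested. Copies of the 31 bases with G at the site, which could read as edited, occur 1 time for site 1898 and 2 times for site 1814. They occur 3 times for site 1916 and 4 times for site 1917. Their part in the levels at these sites was not tested.

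The 48 libraries held between 1861831 and 11394093 summed reads over all positions, and between 1949 and 6806 positions were read more than 100 times. Positions in 12 neuronal transcripts, used to check the tissue labels, numbered 217 to 239 over that coverage in brain libraries and were fewer in every other library. At site 4709 the 46 libraries over the minimum had 160 to 2617 reads, with a median of 1463, and the 2 without a read were small intestine WT replicates 2 and 3. At site 515 all 48 libraries had 1264 to 4961 reads. Sites in 1 cluster share reads and PCR copies, which carried no molecular identifiers, so neighbouring sites are not independent measurements. Among the 66 positions that were read and are not named here, the median level over 2862 values was 0.15%, the 95th percentile was 0.571% and the highest value was 2.04%.

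Cluster 4 held the highest level reached across a whole group. At site 4709, WT brain had levels of 82.4%, 46.1% and 35.2% (mean 54.6% ± 24.7, SD, n = 3). E861A brain had 61.9%, 29.5% and 62.3% (51.3% ± 18.8, n = 3). The ranges overlap, and the difference of the means was -3.31 percentage points with a standard error of 17.9. The spread leaves room for a large change in either direction, so these values do not show that the genotypes were alike.

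Site 4704 lies 5 bases upstream. WT brain had 51.2%, 0.0762% and 34.2% there (28.5% ± 26, SD, n = 3), and E861A brain had 34.3%, 21.8% and 17.1% (24.4% ± 8.87, n = 3). The E861A mean was 85.8% of the WT mean at this site, compared with 93.9% at site 4709. Neither direction held when 1 library was left out. The difference was 7.30 percentage points at site 4704 without WT replicate 1, and 10.6 or 7.56 points at site 4709 without WT replicate 1 or E861A replicate 2, with E861A higher. WT replicate 2 stands apart here, because its level was near 0 at site 4704 while site 4709 reached 46.1% in the same library.

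Site 4690, 19 bases upstream of site 4709, had levels of 38.3%, 0.924% and 11.8% in WT brain (17% ± 19.2, SD, n = 3). In E861A brain it had 0.12%, 3.05% and 0% (1.06% ± 1.73, n = 3). The E861A mean was 6.21% of the WT mean, a difference of -16 percentage points with a standard error of 11.1. The WT mean rests largely on replicate 1, and the E861A mean on replicate 2. The ranges overlap, since WT replicate 2 lay below E861A replicate 2. In the 2 E861A brain libraries that were edited at more than 60% at site 4709, site 4690 was at 0.12% and 0%. Site 4694, between sites 4690 and 4704, was low in both groups, with 0.0863%, 0.0751% and 3.09% in WT and 3.64%, 0.264% and 0.246% in E861A.

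Kidney WT means at sites 4709, 4704 and 4690 were lower than the brain WT means. Site 4709 had 11.7%, 6.88% and 12.9% in WT and 10.2%, 5.22% and 1.73% in E861A, so that the E861A mean was 54.4% of the WT mean. Site 4704 had 9.83%, 7.01% and 3.02% in WT and 10.4%, 6.42% and 1.09% in E861A, and there the E861A mean was 90.4% of the WT mean. The E861A level at site 4704 was instead higher, by 0.622 points with pooled reads, 0.968 points without WT replicate 1 and 1.81 points without E861A replicate 3. At site 4690 the WT libraries had 5.75%, 3.12% and 0.635%, whereas all 3 E861A libraries were at 0%. The groups overlap at sites 4709 and 4704 and do not overlap at site 4690.

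In liver, site 4709 had 20.8%, 39.7% and 6.93% in WT, and 0%, 0.25% and 14.6% in E861A. Site 4704 had 0%, 39.5% and 7.36% in WT, and 13.6%, 0.074% and 13.9% in E861A. Site 4690 had 21%, 19.9% and 0% in WT, and 0.0814%, 0% and 0.0596% in E861A. E861A liver thus held libraries with more than 13% at sites 4709 or 4704 and none above 0.0814% at site 4690. The E861A liver mean of 4.95% at site 4709 rests on replicate 3.

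**Figure D1:**
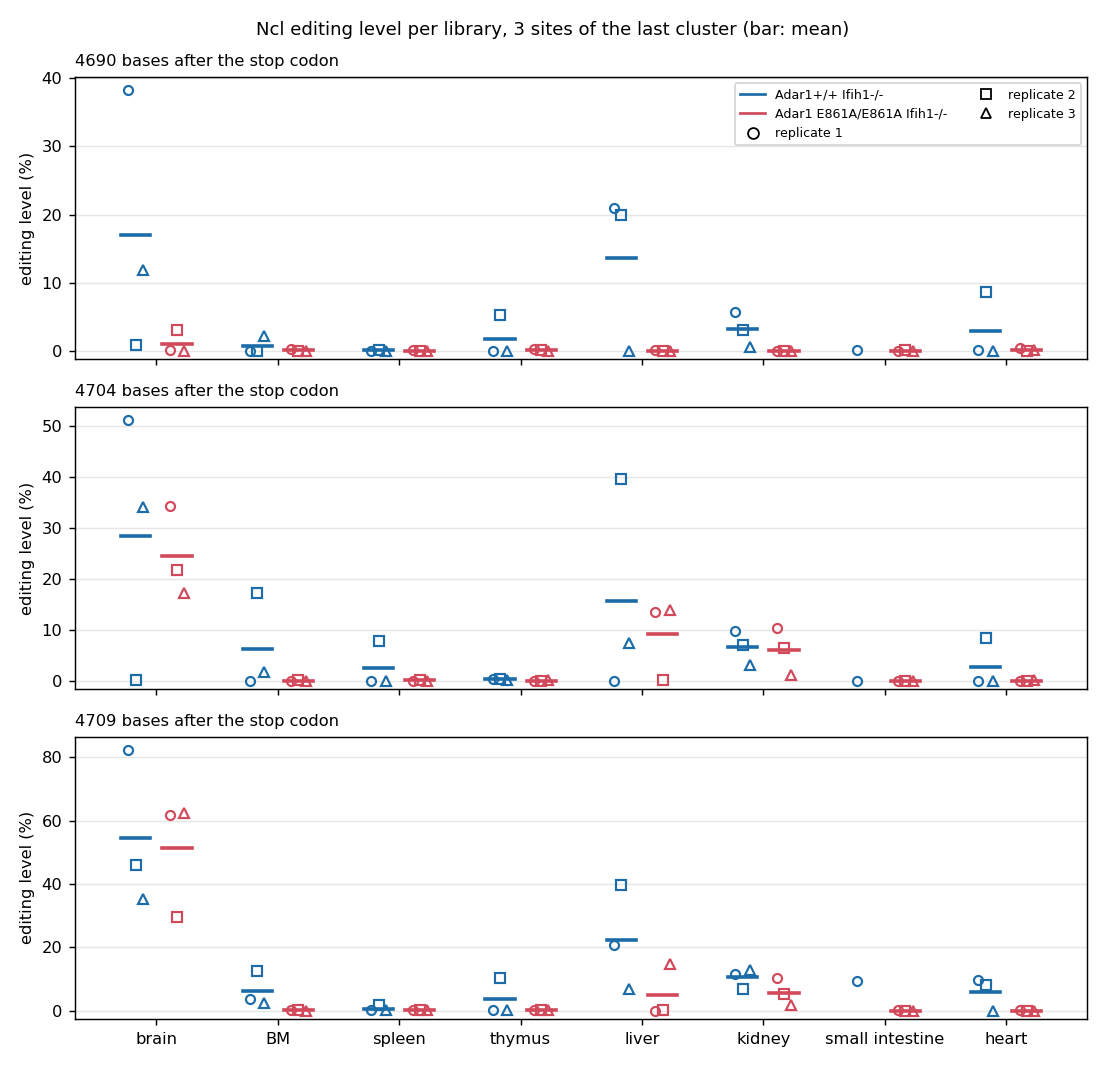
Editing level in percent at sites 4690, 4704 and 4709 in each library, by tissue, with Adar1+/+ Ifih1-/- in blue and Adar1E861A/E861A Ifih1-/- in red; symbols mark replicates and bars the mean of at least 2 libraries. E861A libraries of brain and kidney remain above 1% at sites 4704 and 4709, and only 1 E861A library of any tissue exceeds 1% at site 4690.

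In BM, spleen, thymus and heart, every E861A library was at or under 0.399% at all 3 sites, within the range of the positions that were not edited. BM WT had 3.78%, 12.5% and 2.39% at site 4709 and BM E861A had 0.269%, 0.338% and 0%, with no overlap. The BM WT library with 12.5% had only 160 reads at the site. Heart WT had 9.59%, 8.16% and 0%, and heart E861A had 0.1%, 0% and 0.0421%. In thymus the WT mean of 3.59% came from replicate 2 with 10.4%, the other two libraries lying at 0.262% and 0.0628%. Spleen WT reached 1.87% in replicate 2 only, and its other two libraries were at 0.0678% and 0.119%. In small intestine the site was read in WT replicate 1 alone, at 9.48%, while the E861A libraries had 0.0764%, 0.0456% and 0%.

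Counted over single libraries, site 4709 exceeded 1% in 17 of 22 WT and 7 of 24 E861A libraries. Site 4704 exceeded 1% in 11 of 22 WT and 8 of 24 E861A libraries, and site 4690 in 9 of 22 and 1 of 24. All 9 WT libraries above 1% at site 4690 were also above 1% at site 4709. The 7 E861A libraries above 1% at site 4709 were those of brain and kidney and liver replicate 3. All 7 were above 1% at site 4704, and 1 of them, brain replicate 2, was above 1% at site 4690. In WT, by contrast, both sites 4709 and 4690 were above 1% in 9 of the 17 libraries. These counts describe the contrast for which the gene was chosen and were not tested.

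**Figure D2:**
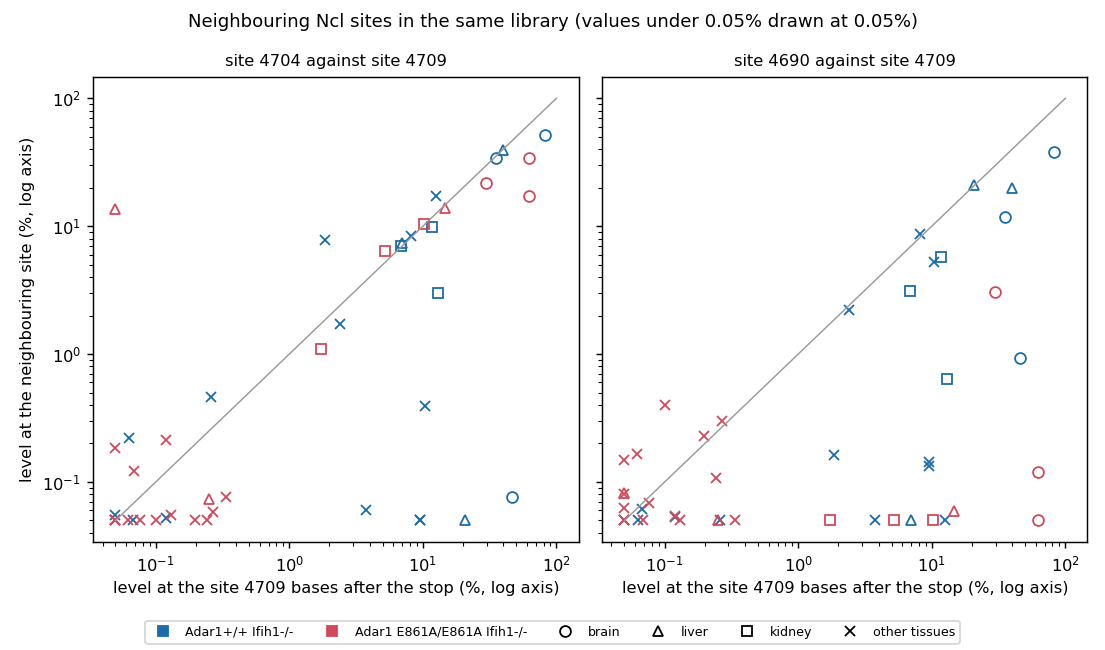
Level at site 4704 (left) and site 4690 (right) against the level at site 4709 in the same library, in percent on log axes, with genotype by colour and tissue by symbol; the grey line marks equal levels. The 3 E861A brain libraries lie at 17.1% or more on the left, and on the right 1 of them is at 3.05% and the others are at or under 0.12%.

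The order of the WT tissues at site 4709 by their means was brain (54.6%), liver (22.5%), kidney (10.5%), BM (6.22%), heart (5.92%), thymus (3.59%) and spleen (0.684%). Brain and liver overlapped, since the highest liver library (39.7%) exceeded the lowest brain library (35.2%), and each further pair of neighbours in this order overlapped as well. Brain did not overlap with kidney, BM, heart, thymus or spleen. In bulk tissue, fewer cells of a type and less edited RNA per cell cannot be told apart.

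WT brain was compared with each other WT tissue by limma over all edited sites. The WT levels were among those on which Ncl was selected, so these counts support nothing about Ncl. Site 4709 was the only Ncl site called. In spleen its pooled level was 0.694%, so that it entered the test through brain alone, the tissue where it is high. Other sites did so too, for example sites 4704 and 521 in thymus, with pooled WT levels of 0.365% and 0.184%. Site 4709 was called lower than in brain in spleen and thymus, so that 1 of 11 Ncl sites tested was called in spleen and 1 of 9 in thymus, where 19.2% and 12.9% of all sites tested were called. No Ncl site was called in BM (0 of 9, background 8.13%), liver (0 of 10, background 1.25%), kidney (0 of 9, background 13.2%), small intestine (0 of 6, background 6.83%) or heart (0 of 10, background 5.03%). At an unadjusted p under 0.05 the limma counts in these tissues were 1, 0, 1, 0 and 2, and a quasi-binomial model called none in any of the 7 tissues. The thymus count was 0 without brain WT replicate 1 or 3, or without any 1 of the thymus libraries. The spleen count was 3 without brain WT replicate 2 or 3 and otherwise 1, and the kidney count was 1 without brain WT replicate 1 and 2 without replicate 3. In the main fit the Ncl counts lie near or under the background. Nothing particular to Ncl is read from any of these counts.

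Cluster 1 lies nearest to the stop codon and had lower levels, and its 4 edited sites were read 1153 times or more in every library. At site 515, WT brain had 6.5%, 5.54% and 2% (4.68% ± 2.37, SD, n = 3) and E861A brain had 2.85%, 1.2% and 2.31% (2.12% ± 0.838, n = 3). At site 505, 10 bases upstream, WT brain had 7%, 5.74% and 0.789% and E861A brain had 0.926%, 0.366% and 0.227%. The E861A mean was 45.3% of the WT mean at site 515 and 11.2% at site 505, and both ranges overlap. Site 521 had 6.88%, 0.274% and 0.766% in WT brain and 1.26%, 1.8% and 1.99% in E861A brain, all 3 of the latter above 1%. Site 524 had 6.61%, 0.0249% and 0.52% in WT brain and 1.58%, 0.106% and 0.613% in E861A brain. Both pairs of ranges overlap. In WT brain replicate 1 the 4 edited sites of cluster 1 had levels between 6.5% and 7%.

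Outside brain, site 515 was close to 0 in nearly all E861A libraries. BM WT had 1.73%, 2.79% and 2.31% against 0.0461%, 0% and 0.0595% in E861A. Thymus WT had 1.5%, 1.41% and 1.22% against 0.0446%, 0% and 0.131%. Kidney WT had 2.19%, 2.65% and 1.39% against 0%, 0% and 0.286%. The groups do not overlap in these 3 tissues. In liver, E861A replicate 1 had 1.05% and overlapped with WT libraries at 1.51%, 1.01% and 0.814%. In the other tissues most WT libraries were near 0 as well. Heart WT had 0% in all 3 libraries, spleen WT had 0.776%, 0.0447% and 0%, and small intestine WT had 5.82%, 0.0729% and 0%. Over single libraries, site 515 exceeded 1% in 15 of 24 WT and 4 of 24 E861A libraries, and site 505 in 8 of 24 and 0 of 24.

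Site 2883 in cluster 3 was edited in WT in all 8 tissues, more than any other Ncl site. Its WT means ran from 2.52% in small intestine, where 2 libraries were covered, to 9.14% in liver. WT brain had 7.78%, 4.61% and 7.25%, and E861A brain had 3.66%, 3.54% and 3.94%, with no overlap. The E861A mean was 56.7% of the WT mean in brain, 84.7% in heart, 31.1% in kidney, 23.1% in liver and 16.9% in thymus. It was 7.12% in spleen, 3.62% in small intestine and 2.38% in BM. Liver WT had 7.2%, 12.4% and 7.82%, and liver E861A had 3.05%, 3.07% and 0.214%, with no overlap either. Heart WT had 3.45%, 5.46% and 1.7% and heart E861A had 1.53%, 4.97% and 2.48%, which overlap. In heart the E861A mean was the higher one without WT replicate 2 (by 0.42 points) or E861A replicate 1 (by 0.19 points). Kidney WT had 8.29%, 5.6% and 2.22% and kidney E861A had 2.34%, 0.379% and 2.29%, which overlap through WT replicate 3.

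In BM the 2 covered WT libraries at site 2883 had 3.7% and 7.85%, and the E861A libraries 0%, 0.307% and 0.105%. Spleen WT had 4.36%, 9.21% and 0.423% against 0.271%, 0.358% and 0.367% in E861A. Neither pair of groups overlaps, although spleen WT replicate 3 lay at 0.423%. Thymus WT had 3.88%, 5.44% and 0.899% against 1.23%, 0.328% and 0.171% in E861A. Small intestine had 4.89% and 0.149% in the covered WT libraries against 0%, 0.0777% and 0.196% in E861A, and both of these pairs overlap. In brain the adjacent adenosine, site 2884, had 4.65%, 0.456% and 2.96% in WT and 1.54%, 2.36% and 5.09% in E861A. In kidney it had 2.84%, 2.52% and 1.51% in WT and 0.0974%, 0.378% and 0% in E861A, with no overlap. In liver it had 0.774%, 8.99% and 0.181% in WT and 0.0527%, 0.289% and 6.89% in E861A. Liver E861A replicate 3 was thus at 6.89% at site 2884 and at 0.214% at site 2883, the reverse of the other two E861A libraries, in which site 2883 was the higher one.

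In the further edited sites of clusters 2 and 3 given here, the groups above 1% rested on 1 or 2 libraries each. Site 1806 had 9.31%, 0.204% and 0% in small intestine WT, and 2.87% in kidney WT replicate 2 between 2 libraries at 0%. Site 2890 reached 6.75% in spleen WT replicate 2 and 2.85% in liver WT replicate 2, and site 2895 had 2%, 0.172% and 4.85% in spleen WT. Sites 2659 and 2664 passed 1% in small intestine E861A alone, through replicate 3 with 2.46% and replicate 2 with 2.06%. Site 1916 reached 6.41% in small intestine WT replicate 1, and site 2781 reached 3.57% in kidney WT replicate 3. Site 1917 had 7.51%, 2.64% and 0% in kidney WT and 1.39%, 0% and 0% in kidney E861A. In cluster 4, site 4687 exceeded 1% in heart WT replicate 1 only, at 9.71%.

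**Figure D3:**
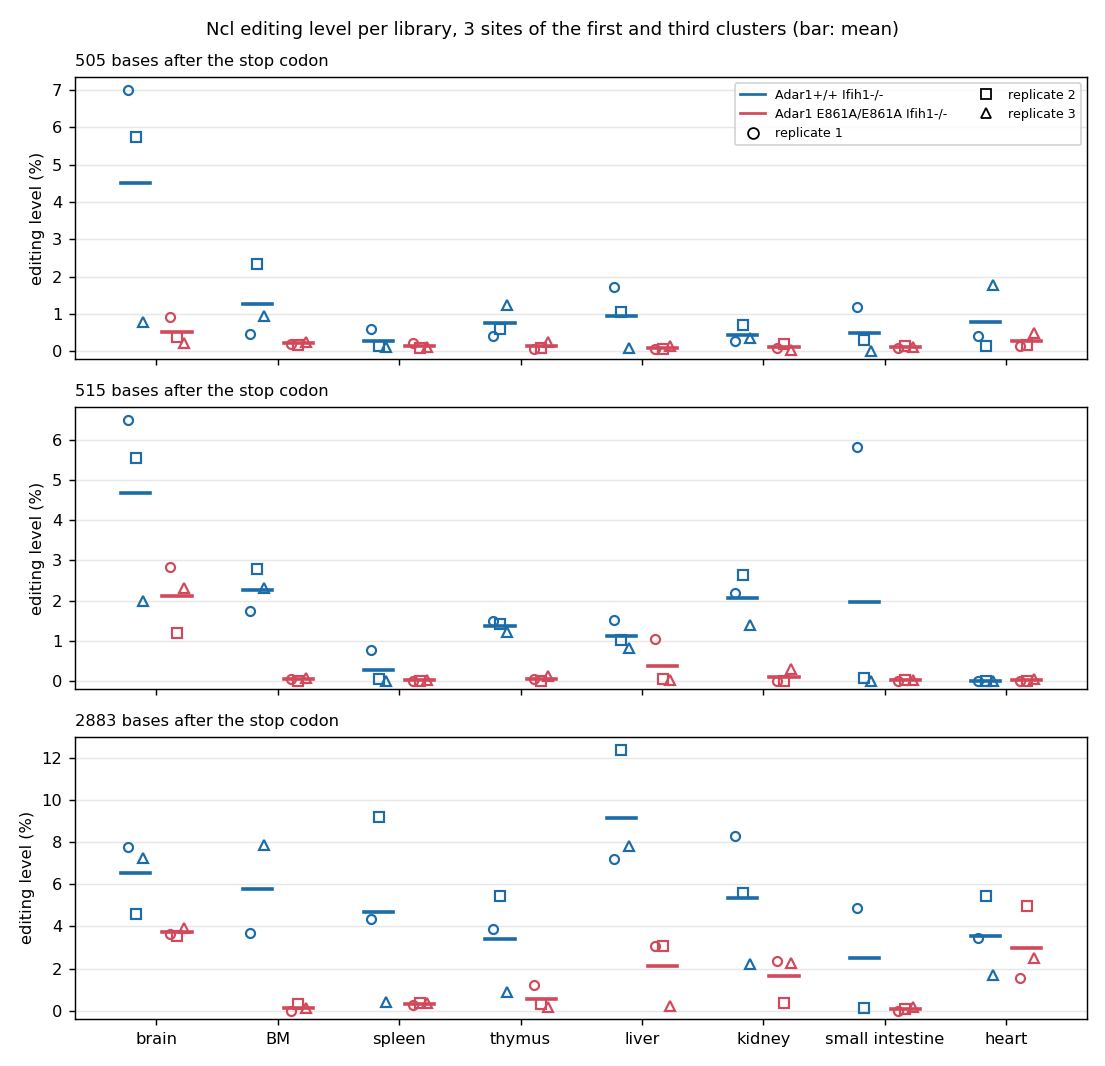
Editing level in percent at sites 505, 515 (cluster 1) and 2883 (cluster 3) in each library, by tissue and genotype, with replicates by symbol and means as bars. E861A brain libraries at site 515 lie between 1.2% and 2.85%, whereas E861A brain libraries at site 505 lie under 1%.

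The 5′ part of cluster 3 was read poorly in WT brain. At site 2653, E861A brain had 38.4%, 24.3% and 0.943%, from 698, 404 and 318 reads. WT brain had 3, 84 and 40 reads there, all below the minimum, of which 0, 9 and 19 carried guanosine, so the genotypes cannot be compared. Site 2648 had 39.3%, 0% and 1.59% in E861A brain. In liver, site 2653 had 0.617%, 6.5% and 0.128% in WT and 0%, 2.37% and 5.11% in E861A, with nearly equal means of 2.41% and 2.49%. Single E861A libraries also reached 6.16% in BM (replicate 3) and 5.26% in kidney (replicate 2), where WT means were 0.0397% and 0.133%.

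In cluster 2, site 1814 had its highest levels in kidney. Kidney WT had 13.3%, 14.6% and 3.91% (10.6% ± 5.82, SD, n = 3) and kidney E861A had 0%, 0% and 0.182% (0.0607% ± 0.105, n = 3), with no overlap. Liver WT had 0%, 9.33% and 3.36% and liver E861A was at or under 0.0842%. Single WT libraries also reached 8.68% in thymus (replicate 1) and 5.76% in BM (replicate 3). In E861A brain, replicate 3 had 7.84% and the other two had 0%, while WT brain was covered in 1 library only, at 0%. At site 1898, liver WT replicate 1 had 78.9% (761 of 965 reads, 95% Wilson interval 76.2% to 81.3%), and liver WT replicates 2 and 3 had 0.566% and 0.0614%. The liver WT mean of 26.5% at this site rests on that library, and intervals here cover counting error only. Site 1788 exceeded 5% only in BM E861A, through replicate 2 with 11.9% against 0.332% and 0.0656%.

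**Figure D4:**
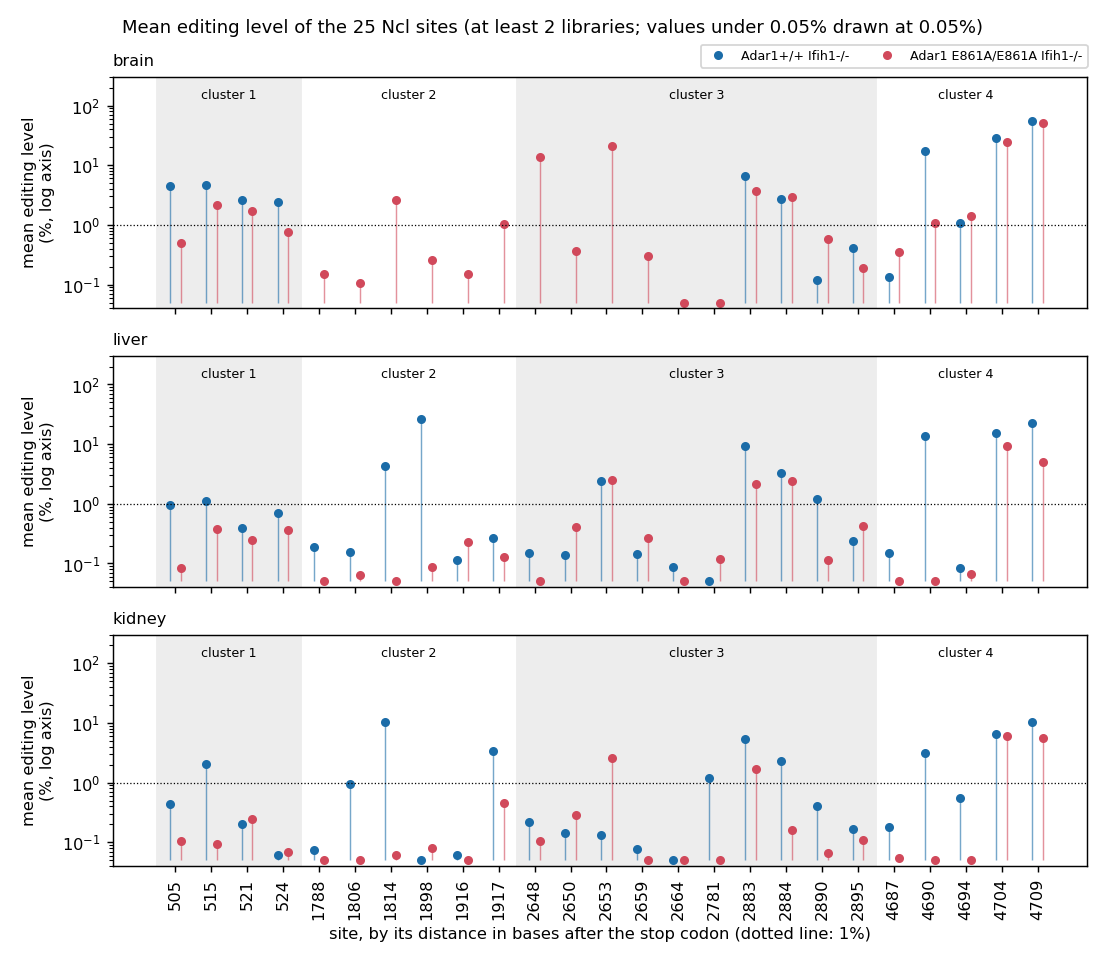
Mean editing level in percent (log axis) of the 25 Ncl sites in brain, liver and kidney, ordered by distance after the stop codon, with Adar1+/+ Ifih1-/- in blue and Adar1E861A/E861A Ifih1-/- in red; groups with fewer than 2 covered libraries are left out. Site 4709 has the highest mean in both genotypes of brain, at 54.6% and 51.3%.

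Across tissues, the number of edited Ncl sites was 9 in WT and 8 in E861A brain, of which 7 were shared. It was 8 and 3 in BM with 0 shared, 5 and 0 in spleen, and 6 and 0 in thymus. It was 11 and 5 in liver with 5 shared, and 10 and 4 in kidney with 3 shared. Small intestine had 4 and 2 with 0 shared, and heart had 5 and 1 with 1 shared. These numbers rest on 52 covered positions in brain, 77 in small intestine and 89 in each other tissue. In BM the 3 sites edited in E861A were 1788 and 2653, each above 1% in 1 library, and 2650, with 2.63%, 0% and 1.14%. Without E861A replicate 3 the BM E861A number is 1, and it is 0 without WT replicate 1 or 3, because too few libraries are then covered. The BM WT number is 4 without WT replicate 3, and the spleen WT number is 2 without WT replicate 2. In small intestine the WT number is 0 without WT replicate 1, and the E861A number is 0 without WT replicate 1 or 2 or E861A replicate 2 or 3. The E861A number is 3 in liver without E861A replicate 3 and 3 in heart without E861A replicate 1.

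The number of Ncl sites whose E861A libraries all lay below all WT libraries was read beside the same share over all edited sites. It was 1 of 10 in brain (background 11.6%), 4 of 11 in BM (42.4%), 1 of 5 in spleen (26.4%) and 2 of 6 in thymus (27.4%). It was 1 of 11 in liver (31.9%), 4 of 11 in kidney (41.9%), 1 of 6 in small intestine (13.1%) and 0 of 5 in heart (10.8%). No Ncl site had all E861A libraries above all WT libraries in a tissue where it was edited. Sites over 1% in WT alone entered these counts through WT, for Ncl as for the background.

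limma over all edited sites called 3 of 11 Ncl sites lower in E861A in BM, where 27% of all sites were called, and 1 of 11 in kidney, where 17.1% were called. The BM sites were 515, 2883 and 4709, and the kidney site was 1814. Their E861A means there were 0.0352%, 0.137%, 0.202% and 0.0607%. Each of them thus entered the test through WT alone, the group where it is high, so a lower E861A level is partly built in. limma called no Ncl site in spleen (background 9.15%) or liver (9.75%), and no site of any gene in brain, thymus, small intestine and heart (0% each). At an unadjusted p under 0.05 the Ncl counts were 1 in spleen, 1 in liver and 0 in the other 4 tissues without a call, and over all genes they were 56 in brain, 75 in thymus, 2 in small intestine and 21 in heart. A quasi-binomial model called 1 Ncl site each in BM and thymus and none elsewhere. Over all genes it called 1 site in brain, 5 in thymus, 0 in small intestine and 2 in heart. A fit over all 48 libraries, which share 1 estimate of the spread, called 217 of 808 sites in brain, 94 of 529 in thymus, 48 of 413 in small intestine and 29 of 446 in heart. The BM count was 0 without any 1 of the E861A libraries and 2 without WT replicate 1 or 3. Without WT replicate 3 the count was 4 in kidney, 2 in thymus, 1 in spleen and 1 in liver, and without WT replicate 1 it was 1 in liver. The counts over all genes without WT replicate 3 were 200 of 542 sites in kidney, 223 of 560 in thymus, 79 of 285 in spleen, 98 of 572 in liver and 12 of 624 in brain. Since the genotype contrast led to the choice of Ncl, nothing is read from these counts.

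The median log2 change of the Ncl sites tested, E861A against WT, was -0.39 in brain beside -0.12 over all edited sites. It was -0.83 beside -1.30 in BM, -1.10 beside -0.90 in spleen and -1.08 beside -1.19 in thymus. It was -0.79 beside -1.02 in liver, -1.28 beside -1.26 in kidney, -0.99 beside -1.04 in small intestine and -0.997 beside -0.83 in heart. Sites over 1% in WT alone entered these medians through WT, so that lower E861A values are partly built in.

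The pattern of site 4709 over groups was compared with 680 sites of 209 other named genes over at least 12 groups. Its level was most like that of sites in Fbxl17 (chr17:63403533, 3′ UTR, Pearson r = 0.99 over 14 groups), Dclre1c (chr2:3377642, 3′ UTR, 0.98 over 15), Unc80 (chr1:66718450, intronic, 0.98 over 13), Txndc9 (chr1:38041522, 3′ UTR, 0.98 over 14) and Cdh22 (chr2:164937353, 3′ UTR, 0.98 over 12). Site 4709 had means of 54.6% and 51.3% in the brain groups and at most 22.5% elsewhere. A high r therefore rests mainly on a high level in brain. An r above 0.95 was reached by 60 of the 680 sites, and the points share their libraries. The Txndc9 and Cdh22 sites had no WT brain level, so that in brain their likeness rests on E861A, with 62.3% and 21.4%. The Fbxl17 site was at 19.8% in WT and 14.9% in E861A brain and at most 8.12% in any other group. The Unc80 site, in an intron of a gene for a subunit of a neuronal sodium leak channel complex, was at 13.3% and 12% in brain and at most 0.397% elsewhere.

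Of 24 other genes of the nucleolus and of ribosome assembly, 9 had positions in the tables (Ddx21, Dkc1, Nob1, Nolc1, Nop14, Nop2, Nop58, Rrn3 and Wdr12). None of their 21 positions was read more than 100 times in any library, so Ncl is the only gene of this group with a value here. Among Ncl positions covered in both genotypes of a tissue, the lowest group level counted as edited was 1.05% (site 2650, BM E861A), and the highest not counted was 0.951% (site 2650, BM WT). On either side of the coverage minimum at site 2653 were liver WT replicate 1, the least covered library that was used (0.617%), and brain WT replicate 2 with 84 reads (10.7%), which was left out.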

How the data were processed

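Editing of transcripts from 48 tissue libraries was measured by mmPCR-seq. The authors aligned reads with STAR, used SAMtools and worked on mm9, per the labels, with versions not given in the sources used here. The deposited tables hold coverage and edited reads as counts and the editing level as a fraction for 48715 positions, and that fraction matched edited reads over coverage to within 0.0005. Levels were recomputed from the counts where coverage exceeded 100. PCR copies could not be collapsed, so read counts overstate the number of molecules sampled. The other 2 deposited tables hold only values past that coverage and were not used.

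The log2 ratio of edited to unedited share, with an offset of 0.01, was tested with limma 3.58.1 (lmFit, eBayes with trend) per tissue over all edited sites (pooled level over 1%), at a Benjamini-Hochberg adjusted p under 0.05. Tests were tested on simulated data. Sequence came from mm9 and GENCODE M1, and inverted matches from blastn 2.17.0 (E-value under 0.001). Sites above 1% in either genotype of a tissue were named, and values per library were given for those above 5% or described as neighbours, with low tissues summarised. No cell type was named. The members and lists were chosen with earlier results of these data known. Alternatives covered coverage, limits, offsets, scale, model, block and left-out replicates.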

Additional observations from a re-analysis of the deposited data

How the results depend on the processing

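Ncl had 19 sites edited in WT and 13 in E861A. With a limit of 5% these were 6 and 3, and under the other alternatives they stayed within 1.5 times. Of the 16 numbers by tissue and genotype, 14 moved by over 1.5 times with the 5% limit, 3 with coverage in all 3 replicates and 1 with coverage over 500.

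The Ncl counts called between E861A and WT (main 3 in BM, 1 in kidney and 0 elsewhere) changed as follows. In BM the count was 1 with the 5% limit, the quasi-binomial model or the study's criterion (F test p under 0.1 and means 5 points apart), 2 with coverage in all 3 replicates, and 0 with an offset of 0.05, untransformed levels or the replicate block. In kidney it was 4 with an offset of 0.001, 2 in the fit over all 48 libraries, and 0 with the quasi-binomial model or untransformed levels. The fit over all 48 libraries called 2 in brain, 4 in liver and 1 in spleen (over all genes 217 of 808, 223 of 677 and 65 of 284 sites), the study's criterion 1 in liver (95 of 677), and the quasi-binomial model 1 in thymus. Leaving out single replicates gave 0 to 3 in BM, 1 to 4 in kidney, 0 to 1 in spleen, 0 to 2 in thymus and 0 to 1 in liver. Where no count over all genes stands beside an Ncl count, its rise or fall cannot be told from a general one. Nothing is read from it.

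Against WT brain (main 1 in spleen, 1 in thymus and 0 elsewhere), the fit over all 48 libraries called 5 in BM, 9 in heart, 4 in kidney, 4 in liver, 4 in small intestine, 9 in spleen and 7 in thymus. Over all genes that fit called 391 of 713, 408 of 696, 376 of 725, 350 of 721, 398 of 688, 417 of 694 and 390 of 739 sites in the same order. It tested the same sites as the main fit. The share of Ncl sites called was above that over all genes in BM, heart, small intestine, spleen and thymus. In kidney and liver it was under that share. Nothing particular to Ncl is read from that fit, because Ncl was selected on these levels. Coverage in all 3 replicates, or the 5% limit, gave 1 in BM and 1 in kidney. Coverage over 500 gave 1 in heart and 1 in kidney, and over 50 gave 0 in thymus. Without a trend BM had 1. An offset of 0.001 gave 3 in spleen, 1 in heart and 0 in thymus, and an offset of 0.05 gave 0 in thymus. The quasi-binomial model, untransformed levels and the replicate block each gave 0 in spleen and 0 in thymus. The study's criterion gave 1 in BM, 1 in heart and 1 in kidney. Leaving out single replicates gave 1 to 3 in spleen, 0 to 1 in thymus and 0 to 2 in kidney. Apart from the fit over all 48 libraries, no count over all genes stands beside these, so their changes cannot be told from general ones. The cause of these changes was not tested.

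The replicate numbers did not pair the libraries. Correlations of same-numbered deviations ran from -0.12 to 0.24, in 0 of 15 comparisons did every pair exceed 0.1, and in 1 did every library correlate best with its own number. With the replicate block the kidney count between the genotypes stayed at 1.

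Of 548 alternative values of 64 level differences, 51 changed sign, and 31 of the 64 differences changed sign under some alternative. By less than 1 SD between replicates moved 546 of the values. Leaving out 1 of 3 replicates cannot move a difference by 1 SD, so that number does not show that the differences were stable. With 3 libraries a group and levels that differed many-fold within groups, a site without a call cannot be taken as unchanged. The smallest detectable change was not measured.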
